A study of Rattus norvegicus with 9 samples.

Results

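A set of 7 genes of the fibrillar extracellular matrix is described here in RN46A cells exposed to lithium or sodium valproate (VPA): the collagens Col1a1, Col3a1 and Col6a1, the small leucine-rich proteoglycans Dcn, Lum and Prelp, and fibronectin, Fn1. The 7 genes were taken by name from the authors' deposited tables of VPA against control and matched by Ensembl identifier to the count table, which holds 32662 genes. All 7 had enough reads to be among the 12719 genes tested. They were chosen because they were listed as lower with VPA, so their VPA levels are given as a description without p-values. Of the 7, all but Dcn are in the authors' deposited DESeq2 table of VPA, and all but Lum are in their deposited Salmon and sleuth table. Members share no sequence target, but Dcn and Lum are adjacent protein-coding genes in the rat assembly GRCr8.

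RN46A is an immortalised rat raphe line, labelled serotonergic by the submitters, and every library came from this 1 line. The cells were grown at 33 °C in 5% fetal bovine serum with the selection antibiotic Geneticin. For differentiation they were plated on 100 µg/cm2 collagen and 1 µg/cm2 fibronectin and moved to 39 °C in 1% serum with albumin and N2 supplement for 72 h. Cultures then had 72 h without drug (control), with 0.5 mM lithium or with 0.5 mM VPA, 3 libraries each. Both are mood stabilisers: lithium acts on glycogen synthase kinase and inositol phosphate turnover, and VPA is an inhibitor of histone deacetylases. The labels do not say whether the 3 libraries of a group are separate cultures, so each p-value reflects the spread among these libraries alone, and that spread may be technical. The library kit named in the labels does not mark strand, so reads of a member and of any antisense neighbour cannot be told apart.

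Fibrillar collagens are secreted as triple-helical procollagens, trimmed outside the cell and packed into fibrils that carry tensile load. Small leucine-rich proteoglycans bind the fibril surface and set fibril diameter and spacing. Fibronectin is assembled on integrin receptors into a provisional network on which collagen fibrils are laid down. Fibroblasts and other mesenchymal cells are the main makers of this matrix in tissue; mature neurons contribute little of it.

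A promoter sequence was held for 2 members, Col6a1 and Lum, in the supplied RefSeq-based table (GRCr8). The Col6a1 sequence is shown because Col6a1 was the member with the smallest relative spread among controls and had no overlap between VPA and the other groups. The 250 bases before its start, chr20:11905440-11905689 on the + strand, are given 5′ to 3′ with the match to TGANTCA, the AP-1 motif, in capitals.
Col6a1: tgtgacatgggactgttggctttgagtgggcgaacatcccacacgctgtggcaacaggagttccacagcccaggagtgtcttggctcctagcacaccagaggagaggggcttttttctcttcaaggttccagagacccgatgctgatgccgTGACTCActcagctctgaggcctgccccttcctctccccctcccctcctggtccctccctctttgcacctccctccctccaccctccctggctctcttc
The motifs searched on both strands were TATAAA (the core of the TATA box), CCAAT (bound by the nuclear factor NF-Y), GGGCGG (the box bound by Sp1), TGANTCA (bound by AP-1), CAGACA (a Smad-binding element) and TGACGTCA (the cyclic AMP response element). The Col6a1 window held 1 match to TGANTCA, whose first base lies at -99, and 0 to the others. Windows of the same length before 33469 rat starts held the AP-1 motif in 6.34% of cases, the NF-Y motif in 34.0%, the Sp1 box in 30.5%, the Smad element in 17.2%, the TATA core in 12.9% and the cyclic AMP element in 1.59%. The Lum window held 1 match to CCAAT and 0 to the others; it lies inside the annotated gene interval and is not printed. A match here describes letters only.

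Reads assigned to genes totalled 9580591 to 13030300 per library, and 1 read was worth 0.077 to 0.109 CPM, the unit of level used here (reads of a gene scaled to a common library size by TMM). In VPA against control, 1106 of 12719 genes (8.7%) were called by the quasi-likelihood test of edgeR at a Benjamini-Hochberg adjusted p under 0.05, 726 higher and 380 lower; in lithium against control 0 were called by edgeR and 0 by DESeq2, with 116 genes (0.912%) at an unadjusted p under 0.05 in edgeR. Replicate 3 of control and of lithium deviated from their group means together over 10288 genes (r = 0.801), while lithium replicate 1 deviated against control replicate 1 (r = -0.418). Defining serotonergic markers such as Tph2, Slc6a4 and Fev carried no name in the tables and were not analysed here. Of 16 such markers 2 were named, Maob and Htr5b. Their summed level was 1.09 to 1.63 CPM in controls, 0.77 to 1.21 CPM with lithium and 6.96 to 9.75 CPM with VPA. Names exist only for genes the authors listed for a change in these same libraries, so nothing is read from this rise.

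With VPA, every member was lower, in every library, than in any control library. In the VPA libraries fibronectin and the collagens Col1a1 and Col6a1 were at 29.2, 30.5 and 31.2% of their control means, the collagen Col3a1 at 12.8%, and the proteoglycans Prelp and Dcn at 2.24 and 2.11%. All 7 members were called lower, against a background of 2.99% of all genes tested called lower in that comparison; since the members were picked from it, nothing is read from that count. All 7 also had groups that did not overlap, which 11.4% of all genes tested had in this direction. The median fitted log2 change of the 7 was -2.97, also with Lum at the bound given below, and that of all genes tested was -0.01. The choice of members also favoured the lack of overlap and this median, so nothing is read from either. In bulk RNA, fewer cells of a type that makes matrix and less matrix RNA per cell cannot be told apart. Dcn lost its call without control replicate 2, VPA replicate 1 or VPA replicate 3, and Lum without control replicate 1 or any 1 VPA replicate. With all libraries numbered 1 left out, a setting added after seeing the data, only Col3a1 was called (Lum was not tested there), and 15 of all genes tested were called lower; with all libraries numbered 3 left out 5 members were.

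**Figure D1:**
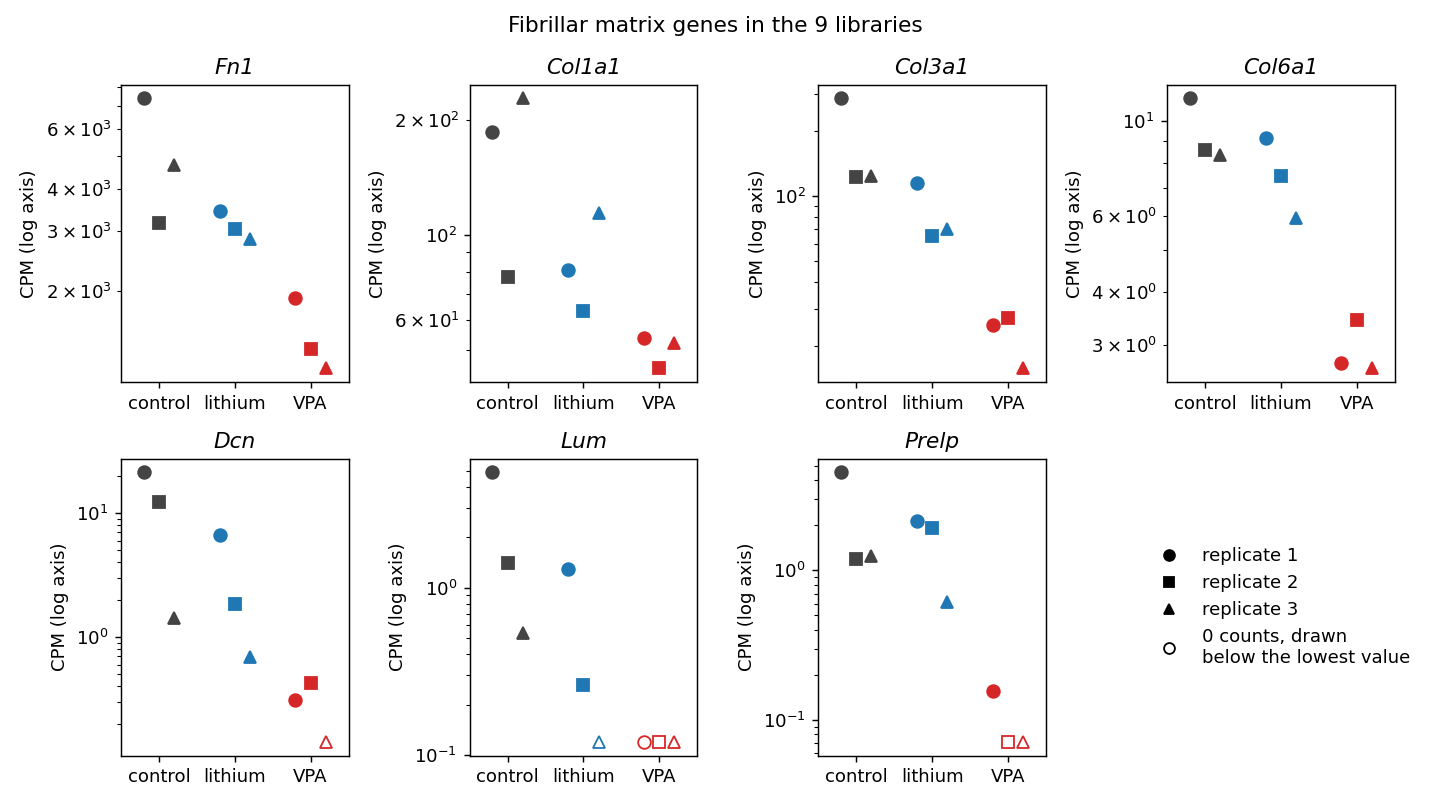
Level of each of the 7 matrix genes in every library, in CPM on a log axis, by group; symbols mark the replicate number and open symbols libraries with 0 counts. VPA libraries lie below all control libraries in every panel, while lithium libraries lie between the groups or overlap the controls, and for Lum 1 lithium library is at 0 counts like those of VPA.

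Fibronectin, the adhesive glycoprotein that organises the other fibrils, was by far the most abundant member. Fn1 (ENSRNOG00000014288) stood at 7382, 3171 and 4687 CPM in control replicates 1, 2 and 3, at 3449, 3049 and 2847 CPM with lithium, and at 1909.6, 1353 and 1185 CPM with VPA. The VPA values were the lowest, and the lithium values overlapped the lowest control only. By mean CPM, which takes no account of transcript length, Fn1 ranked 6 of 12719 genes in control, 14 with lithium and 50 with VPA. Its transcripts took 0.305 to 0.752% of all gene reads in controls and 0.12 to 0.202% with VPA. The fitted change with VPA was -1.78 ± 0.31 (log2 ± SE, n = 3 against 3).

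Both Fn1 transcripts that the authors' deposited Salmon and sleuth table lists are lower with VPA, with effects of -1.28 ± 0.22 (ENSRNOT00000057585) and -1.16 ± 0.24 (ENSRNOT00000019772) on the natural log scale (± SE). In the authors' deposited Cufflinks table, which gives 1 length-scaled value per group, Fn1 was at 529 FPKM in control and 149 FPKM with VPA. That table places Fn1 on chromosome 9 from 78899885 to 78972965. The build behind the positions is not given in the sources used here.

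Col1a1 encodes the alpha 1 chain of type I collagen, the main fibril former of skin, tendon and bone. Col1a1 (ENSRNOG00000003897; chromosome 10, 82745789 to 82762789 in the authors' deposited table) was at 186, 77.7 and 228 CPM in control replicates 1 to 3, 80.8, 63.4 and 114 CPM with lithium, and 53.7, 44.7 and 52.0 CPM with VPA. Its VPA libraries were close together and its controls were not: the highest control was 2.93 times the lowest, against 1.20 times among VPA libraries. Control replicate 2 lay below lithium replicates 1 and 3. The fitted change with VPA was -1.71 ± 0.34 (log2 ± SE).

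Col3a1 encodes type III collagen, which co-assembles with type I in distensible tissues such as vessel wall. Col3a1 (ENSRNOG00000003357; chromosome 9, 52023294 to 52059217) was at 285, 123 and 124 CPM in controls, 115, 65.4 and 70.0 CPM with lithium, and 25.1, 27.0 and 15.8 CPM with VPA. It was the 1 member whose 3 groups were fully separated, control above lithium above VPA. Its fitted change with VPA, -2.97 ± 0.37, was the largest of the collagens and of fibronectin. In the authors' deposited Cufflinks table Col3a1 exceeded Col1a1 per length in control, at 39.8 against 25.0 FPKM, and stood below it with VPA, at 4.04 against 7.68 FPKM.

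Col6a1 encodes a chain of type VI collagen, a beaded microfibril that links fibrils to the cell surface. Col6a1 (ENSRNOG00000001249; chromosome 20, 12657954 to 12676376) was at 11.3, 8.58 and 8.35 CPM in controls, 9.13, 7.46 and 5.93 CPM with lithium, and 2.73, 3.43 and 2.65 CPM with VPA. The lithium libraries overlapped the controls and all 6 were above every VPA library. The fitted change with VPA was -1.69 ± 0.26. Per length it was the lowest of the member collagens, at 2.98 FPKM in control and 1.07 FPKM with VPA in the authors' deposited table.

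Decorin, Dcn, binds type I collagen fibrils through its leucine-rich repeats and limits their lateral growth. Dcn (ENSRNOG00000004554) was at 21.4, 12.4 and 1.42 CPM in control replicates 1, 2 and 3, 6.63, 1.84 and 0.693 CPM with lithium, and 0.312, 0.428 and 0 CPM with VPA. Control replicate 3 was 15.1 times below control replicate 1 and lower than lithium replicates 1 and 2. The VPA libraries together held 8 Dcn reads against 366 in the controls, which is 0.0199 of the control level (95% counting interval 0.00852 to 0.0396). The authors' deposited Salmon and sleuth table gives -3.56 ± 1.08 on the natural log scale for its transcript. Such intervals, and floors below, cover counting error only.

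Lumican, Lum, is a keratan sulphate proteoglycan that spaces collagen fibrils, best known in the cornea. Lum (ENSRNOG00000004610; chromosome 7, 38819770 to 38826862) had 54, 13 and 6 reads in the controls, 15, 3 and 0 with lithium, and 0 in each VPA library. These are 4.90, 1.41 and 0.533 CPM in controls and 1.29, 0.263 and 0 CPM with lithium. A count of 0 allows up to 3 reads, which is 0.234 to 0.321 CPM in the VPA libraries. With 3 reads over the VPA group as the floor and the 73 control reads taken as exact, Lum was at least 26.7-fold lower than in control. The counting interval of the ratio, which covers both groups, reached up to 0.0472. In the authors' deposited Cufflinks table it is listed at 0 with VPA and at 1.09 FPKM in control. Their deposited DESeq2 change for Lum is -2.0 ± 0.38 (log2 ± SE). That is smaller than the fitted -7.71 ± 1.92 plotted below, which rests on 0 VPA reads, and the reason was not tested.

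Prelp binds collagen and the basement membrane proteoglycan perlecan and anchors membranes to the underlying connective tissue. Prelp (ENSRNOG00000003120) was at 4.54, 1.19 and 1.24 CPM in controls, 2.15, 1.93 and 0.616 CPM with lithium, and 0.156, 0 and 0 CPM with VPA. Lithium replicate 2 lay above controls 2 and 3. The 2 reads of the VPA group stood against 75 in control, which is 0.0243 of the control level (counting interval 0.00289 to 0.0908). For Prelp too the authors' deposited DESeq2 change, -2.1 ± 0.38 (log2 ± SE), is smaller than the fitted -5.1 ± 1.0 plotted below.

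**Figure D2:**
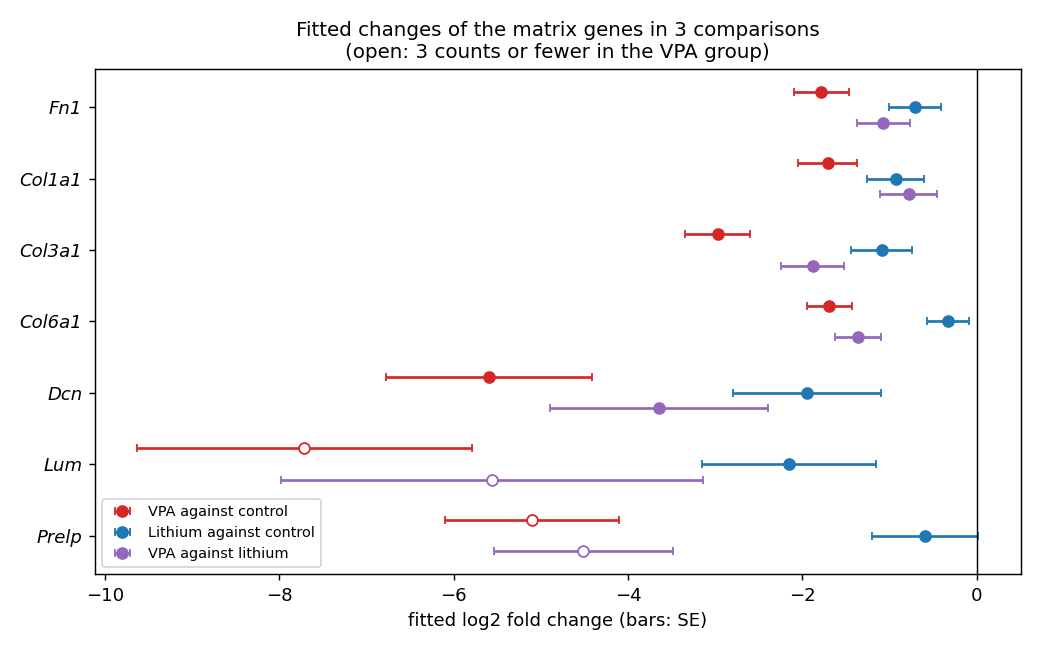
Fitted log2 fold changes of the 7 genes (points) with standard errors (bars) in the 3 comparisons; open points rest on 3 counts or fewer in the VPA group and depend on the prior count. The estimates of VPA against control lie at -1.69 or below, those of lithium against control between -0.33 and -2.15, and those of VPA against lithium at -0.78 or below.

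With lithium, 0 of the 7 members passed the test: in edgeR's fit the Benjamini-Hochberg adjusted p was 1.00 for each, and the background called was 0.0%. DESeq2 also called 0 members. All 7 fitted changes were negative, and 49.6% of all genes tested were. At an unadjusted p under 0.05 there were 4 members, all lower, against 0.582% of all genes tested that were lower at that level. The controls used in this comparison are those used to choose the members, so the 2 drug comparisons are not independent.

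Per gene, the lithium changes were -1.09 ± 0.35 for Col3a1 and -0.93 ± 0.33 for Col1a1 (log2 ± SE), with adjusted p = 1.00 in edgeR's test as for all members. Those of Fn1, Dcn and Lum were -0.71 ± 0.30, -1.95 ± 0.85 and -2.15 ± 1.00. Col6a1 and Prelp stood at -0.33 ± 0.24 and -0.59 ± 0.61. Only Col3a1 had all lithium libraries below all controls, a separation that 1.57% of genes tested showed. Without control replicate 1, the highest control for 6 of the 7 members, the changes were -0.57 for Col3a1, -0.83 for Col1a1, -0.34 for Fn1, -0.18 for Col6a1, -1.16 for Dcn, -0.89 for Lum and 0.34 for Prelp. Without lithium replicate 1, the changes of Dcn and Lum were -3.22 and -4.10.

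The lithium group means were 79.7% of control for Col6a1, 67.7% for Prelp, 61.3% for Fn1, 52.4% for Col1a1, 47.1% for Col3a1, 26.2% for Dcn and 22.8% for Lum. The same order of group means, control over lithium over VPA, held for all 7 and for 23.5% of all genes tested. The members were chosen as lower with VPA than in control, so part of this order was fixed in advance. Nothing is read from that count. In 20 of 21 values a lithium library lay below the control of the same number; Prelp in replicate 2 was the exception, at 1.93 against 1.19 CPM. Among all genes tested, 6.83% were lower with lithium in all 3 numbers, as 6 of the 7 members were. The members were chosen as lower than these same controls, which favours such counts, so nothing is read from them either. The numbers come from the titles, which do not say that equal numbers share a culture.

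The authors' deposited lithium table lists 137 genes, of which 93 are lower. It holds 3 members: Col3a1 at -0.71 ± 0.25, Col1a1 at -0.58 ± 0.25 and Fn1 at -0.53 ± 0.23 (log2 ± SE), each with an adjusted p of 1.00 from the authors' DESeq2 test. These changes are smaller than the edgeR changes given above (-1.09, -0.93 and -0.71), and the reason was not tested. In that table Fn1 had 39515, 35356 and 32924 normalized counts in lithium replicates 1, 2 and 3, and 85325, 36545 and 54877 in the control columns. Here too the highest lithium value exceeded the lowest control value.

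VPA against lithium compares the drugs at the same 0.5 mM and 72 h; it reuses the VPA libraries by which the members were chosen and is given as a description. All 7 members were lower with VPA, and 6 had groups that did not overlap, against 13.5% of all genes tested. The members called lower were 3, against a background of 2.32%: Col3a1 at -1.88 ± 0.36, Col6a1 at -1.36 ± 0.26 and Prelp with 2 reads against 55 (ratio 0.0378, counting interval 0.00447 to 0.143). Fn1 stood at -1.07 ± 0.30, Col1a1 at -0.78 ± 0.33 and Dcn at 8 reads against 107 (ratio 0.0777, interval 0.0327 to 0.159). Lum, at 0 reads against 18, was at least 5.77-fold lower by the same floor (counting interval of the ratio up to 0.237), with lithium replicate 3 also at 0. With the replicate number as a block 6 members were called lower, without control replicate 2 there were 5, and without lithium replicate 1, lithium replicate 2, VPA replicate 2 or VPA replicate 3 there were 2.

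The controls differed more among themselves in these genes than in most. Among 12251 genes averaging at least 1 CPM over the 9 libraries, the median coefficient of variation among the 3 controls was 21.2%. It was 85.3% for Dcn, 82.4% for Prelp, 52.4% for Col3a1, 47.3% for Col1a1 and 42.0% for Fn1, larger than in 99.5, 99.4, 95.6, 93.5 and 90.0% of those genes. Col6a1, at 17.7%, varied less than most. Lum, with a mean under 1 CPM over the 9 libraries (2.28 CPM in controls), was not ranked; its coefficient was 101%. With lithium, Fn1 varied by 9.83% and Dcn by 103%; with VPA, Col1a1 varied by 9.55% and Fn1 by 25.6%.

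**Figure D3:**
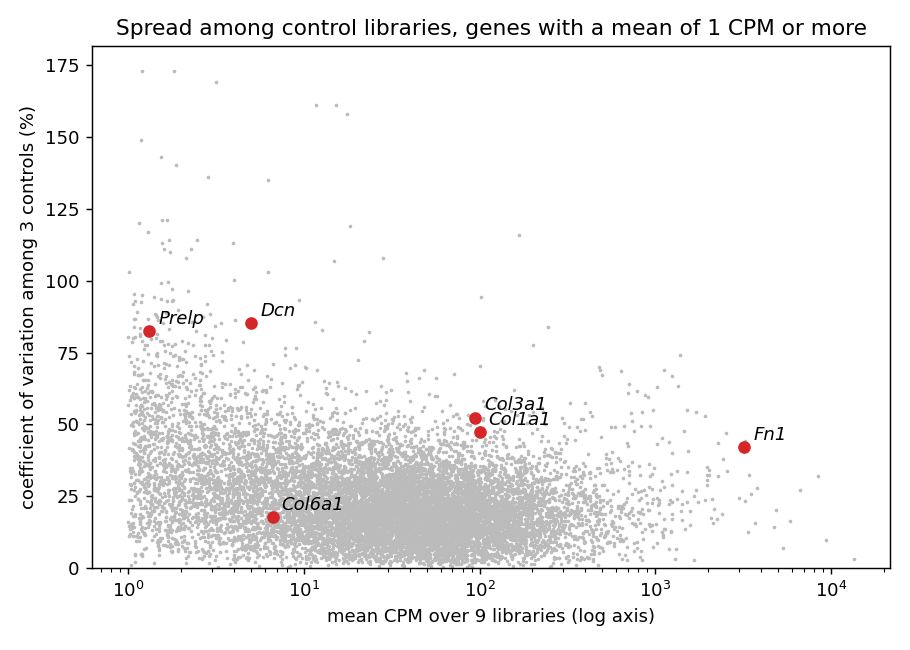
Coefficient of variation among the 3 control libraries against mean level (log axis) for genes averaging at least 1 CPM over the 9 libraries (grey) and 6 matrix genes (red; Lum lies under that mean). Col1a1, Col3a1, Dcn, Prelp and Fn1 range from 42.0 to 85.3%, and Col6a1 is at 17.7%.

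The spread took a different shape in different members. Control replicate 1 was highest for Fn1, Col3a1, Col6a1, Dcn, Lum and Prelp, whereas Col1a1 was highest in replicate 3 of control and of lithium. Dcn and Lum were lowest in replicate 3 of control and of lithium. Over the 6 control and lithium libraries, log2 levels of Lum followed those of Col6a1 (Pearson r = 0.98), Dcn (0.949) and Col3a1 (0.911), and those of Col1a1 little (0.243). Fn1 followed Col3a1 (r = 0.912) more than Dcn (r = 0.546). Taken as deviations from the 3 group means over 9 libraries, r was 0.873 for Dcn and Lum, 0.819 for Col3a1 and Col6a1, 0.539 for Fn1 and Col1a1, and -0.468 for Col1a1 and Dcn. These coefficients describe few points that share libraries, and at the low counts of Lum and Prelp they carry counting noise.

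Ratios between members within a library do not depend on how libraries are scaled. Reads of Col3a1 per read of Col1a1 numbered 1.53, 1.58 and 0.545 in control replicates 1, 2 and 3, 1.42, 1.03 and 0.615 with lithium, and 0.468, 0.604 and 0.304 with VPA. Replicate 3 was lowest in each group, and control replicate 3 fell within the VPA range. Reads of Fn1 per read of Col3a1 were 25.9, 25.8 and 37.7 in controls and 46.6 and 40.7 in lithium replicates 2 and 3. Lithium replicate 1 lay within the control range, so lithium and control libraries overlapped in this ratio. With VPA the ratio was 76.0, 50.1 and 74.9, above every control and lithium library. Reads of Fn1 per read of Col1a1 overlapped between all groups, from 20.6 to 40.8 in controls, 25.0 to 48.1 with lithium and 22.8 to 35.6 with VPA. Col6a1 per read of Fn1 also overlapped, at 0.00154 to 0.0027 in controls and 0.00143 to 0.00253 with VPA.

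**Figure D4:**
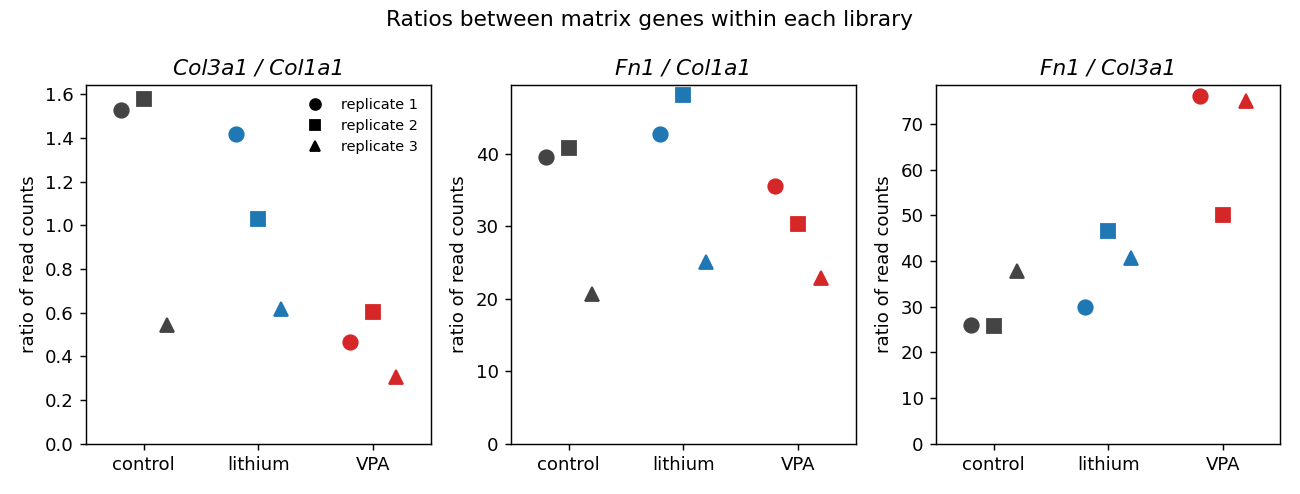
Ratios of raw read counts between pairs of matrix genes in each library, by group, with symbols for the replicate number and linear axes from 0. The Fn1 to Col3a1 ratio is above 50 in every VPA library, the Fn1 to Col1a1 ratio overlaps between groups, and replicate 3 has the lowest Col3a1 to Col1a1 ratio in each group.

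Genes with the most similar pattern were sought among 1220 other named genes averaging at least 1 CPM. Since these carry names because the authors listed them, mostly for VPA, the 6 control and lithium libraries are given first. There the gene most like Fn1 was the mesenchymal transcription factor gene Foxc1 (Pearson r = 0.985). For Col1a1 the top 3 were Cgn, Ptgs1 and Sparc, the last a collagen-binding matrix protein (r = 0.979, 0.977 and 0.976), and for Col3a1 Olfml2b (r = 0.986). Col6a1 was most like Rragd (0.985), Dcn like the nucleotide kinase Cmpk2 (0.987) and Prelp like the cholesterol exporter Abca1 (0.976). Over all 9 libraries Foxc1 (0.984), Cmpk2 (0.991) and Abca1 (0.973) were again first for Fn1, Dcn and Prelp, while Gdpd2 (0.949), Syndig1 (0.968) and Il20rb (0.981) led for Col1a1, Col3a1 and Col6a1. Ranking by Spearman's rho shared 0 to 2 of the top 3 genes, so these places depend on the measure.

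The 7 lists of matrix genes hold 196 genes, of which 35 had a name, 28 of them other than the 7 members and all tested. With VPA 10 of the 28 were called lower, 5 higher and 13 did not pass, against 2.99% lower and 5.71% higher among all genes tested, with a median log2 change of -0.75. A gene carries a name only where the authors listed it for a change in these same libraries, so these counts give no independent support. The 10 lower calls became 16 with DESeq2 or the replicate block, 3 without VPA replicate 1 or VPA replicate 2, 4 without VPA replicate 3, 6 without control replicate 1 and 5 without control replicate 3. The 5 higher calls became 2 without control replicate 1 or control replicate 2, and 3 without control replicate 3, VPA replicate 1 or VPA replicate 3. Col8a1, Col16a1 and the integrin subunit Itga4 kept the call in each of 9 fits that left out 1 library. With lithium 0 of the 28 were called by edgeR or by DESeq2, and their changes ran from -0.94 to 0.63.

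Other collagens were split in direction. Col8a1, a network collagen of vessel and corneal membranes, stood at 121 ± 33.8 CPM in control and fell to 34.2 ± 13.4 CPM under VPA (mean ± SD of 3 libraries), and Col16a1, a fibril-associated collagen, from 226 ± 20.1 to 118 ± 22.6 CPM. The cartilage collagen Col2a1 rose from 0.578 ± 0.196 to 2.34 ± 1.66 CPM and the tissue-junction collagen Col22a1 from 3.90 ± 1.55 to 12.0 ± 4.60 CPM. Without control replicate 1 or 2 neither was called; Col2a1 was also not called without control replicate 3, lithium replicate 2 or VPA replicate 3, nor Col22a1 without VPA replicate 1 or 2. The fibrillar Col5a2, which nucleates type I fibrils, was at 561 ± 189 and 252 ± 114 CPM and did not pass; it was called with the replicate block, without control replicate 3 and by DESeq2. Col11a1, the minor chain of cartilage fibrils, at 131 ± 25.9 and 178 ± 27.8 CPM, did not pass either.

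Of 8 other glycoproteins and proteoglycans of fibrils 4 were called lower with VPA and 0 higher. They were the adhesion modulator Tnc (183 ± 89.2 to 62.6 ± 3.79 CPM), the TGF-beta activator Thbs1 (268 ± 117 to 114 ± 6.88 CPM), the microfibril protein Mfap2 (6.95 ± 0.379 to 3.12 ± 0.086 CPM) and the elastic fibre protein Efemp2 (173 ± 14.8 to 112 ± 13.2 CPM). All 4 calls were lost when VPA replicate 1, 2 or 3 was left out, and also without control replicate 1; Tnc, Thbs1 and Efemp2 lost theirs without control replicate 3, Mfap2 and Efemp2 without control replicate 2, and Efemp2 without lithium replicate 3. Podnl1, the other named leucine-rich proteoglycan, went from 15.1 ± 2.53 to 7.68 ± 2.60 CPM and lost its call without control replicate 2 or 3 or VPA replicate 1 or 3. Its fall, -0.98 ± 0.26 on the log2 scale, was smaller than those of Dcn, Lum and Prelp; the difference was not tested.

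Of 6 genes that process collagen 2 were called lower and 0 higher: the cross-linking oxidase Loxl3 (417 ± 73.4 to 234 ± 52.5 CPM) and the procollagen proteinase enhancer Pcolce (351 ± 69.5 to 206 ± 15.2 CPM). Both calls were lost without VPA replicate 1 or 2 or control replicate 3, and that of Pcolce also without VPA replicate 3. Loxl4 (-0.81 ± 0.23) and the lysyl hydroxylase Plod2 (0.74 ± 0.26) did not pass; Loxl4 was called lower with the replicate block (edgeR adjusted p = 0.0432), by DESeq2, with no filter on low counts and without lithium replicate 1. Among 4 receptors the integrin subunits Itga4 and Itga2 rose, from 0.541 ± 0.0954 to 2.49 ± 0.747 CPM and from 0.414 ± 0.052 to 2.24 ± 1.04 CPM. Itga2, whose product binds collagen, lost its call without any 1 control replicate and without VPA replicate 1 or 3. Itga1 (1.24 ± 0.41) and the collagen receptor kinase Ddr2 (-2.26 ± 0.71) did not pass. Ddr2 was called lower, at -2.31, with the replicate block (edgeR adjusted p = 0.04), by DESeq2 and with no filter, and Itga1 was called higher by DESeq2, with no filter and in the blocked fit of 2 groups alone. In the TGF-beta list the activin antagonist Fst fell from 129 ± 42.3 to 58.4 ± 11.2 CPM and the pseudoreceptor Bambi (0.66 ± 0.22) did not pass, except in the blocked fit of 2 groups alone. Fst lost its call without control replicate 3 or VPA replicate 2 or 3.

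**Figure D5:**
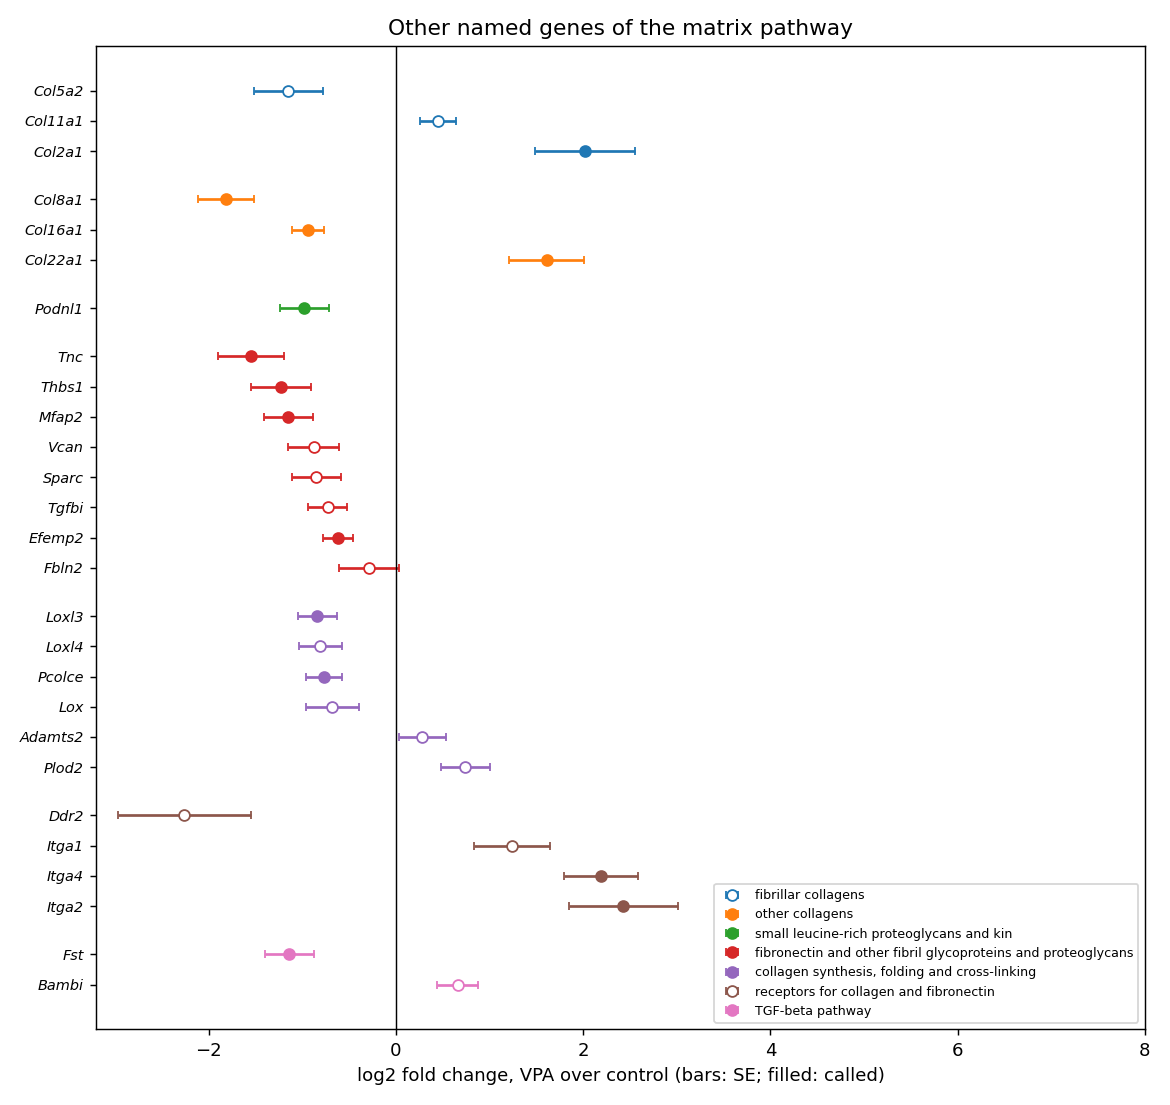
Log2 fold changes of VPA over control (points) with standard errors (bars) for the other matrix genes reported here, coloured by list; filled points were called. The 10 genes called lower lie left of 0, and both called receptors, Itga4 and Itga2, lie right of it.

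Named markers of mesenchymal cells moved in both directions with VPA, with a median log2 change of 0.63. Of 19 fibroblast and mural cell markers 5 were named: S100a4 was lower with VPA (2219 ± 1057 to 488 ± 152 CPM), Cnn1 and Pdpn were higher (0.659 ± 0.13 to 3.38 ± 0.83 CPM and 7.02 ± 1.65 to 13.9 ± 2.96 CPM), and Vim and Pdgfra did not pass. Vim (-0.73 ± 0.24) was called lower with the replicate block (edgeR adjusted p = 0.0495), by DESeq2 and without VPA replicate 2. Their summed level, mostly Vim and S100a4, was 5563 to 7715 CPM in controls, 4941 to 6394 CPM with lithium and 2535 to 4139 CPM with VPA. Pdgfra, which marks matrix-making fibroblasts, was at 5.29 ± 1.30 CPM in control and 8.21 ± 1.35 CPM with VPA. Of 10 neural crest and Schwann cell markers 4 were named, with a summed level of 11.1 to 16.9 CPM in controls, 14.4 to 15.9 CPM with lithium and 55.9 to 65.1 CPM with VPA; Ngfr, Erbb3 and Sox10 were higher and S100b lower. Pdpn lost its call without control replicate 1 or 2 or VPA replicate 1 or 3, and S100b without control replicate 1 or 3 or any 1 VPA replicate. Markers carry a name only where the authors listed them for a change in these libraries, so these calls and sums give no independent support. Among all genes tested 2.99% were called lower with VPA and 5.71% higher. The part of these markers in the matrix result was not tested.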

How the data were processed

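The authors deposited raw counts per Ensembl gene; HTSeq is named by the table's title and STAR 2.5.1, Salmon 0.6.1, Cufflinks 2.2.1, DESeq2 and sleuth by the submitters' processing notes, without roles. No build or annotation is named in those notes or in the files. The authors' tables of comparisons hold, per the file headers, log2 fold changes, p-values, a test score, normalized counts (a signal), FPKM per group, and sleuth effects taken as natural log values because their median ratio to the Cufflinks log2 values was 0.697 over 590 transcripts. A table titled for kallisto repeats the DESeq2 table and was not used.

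Counts were tested with edgeR 4.0.16 in R 4.3.3: TMM, genes kept by filterByExpr at its minimum count of 10, and 1 robust quasi-likelihood model of the 9 libraries, two-sided tests, Benjamini-Hochberg adjustment over 12719 genes. The SE of a log2 change was taken as its absolute value divided by the root of F, and CPM use TMM-scaled sizes. The fit was tested on simulated data. Likeness used log2 CPM with a prior count of 2. Lines naming no gene numbered 0. The members, lists and tests were chosen with earlier results of these data known. Named genes are the members, up to 4 genes of each list by p, and the 3 most similar genes; every named gene of the cell type marker lists is given besides, which that rule does not cover. A single gene of the matrix lists is counted in their totals but not reported here. Alternatives were DESeq2 1.42.0, other scalings and filters, the replicate block, 2 groups alone, a non-robust fit and each library left out; leaving out all libraries numbered 1 or 3 was added after seeing the data.

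Same-numbered control and VPA libraries deviated together (r = 0.6, 0.533 and 0.525). Lithium and control did so only in replicate 3 (r = -0.418, -0.0815 and 0.801), and VPA and lithium mainly there (r = -0.181, 0.053 and 0.538). The blocked fits took the title numbers as pairs in every comparison. For those with lithium, these values do not show such a pairing in replicates 1 and 2.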

Additional observations from a re-analysis of the deposited data

How the results depend on the processing

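The members were picked from VPA against control in these same libraries, so their calls in it give no independent support. In that comparison Col3a1 was called in all alternatives. Col6a1 and Prelp lost the call only without the libraries numbered 1, and Col1a1 and Fn1 only without those numbered 1 or 3. Dcn and Lum were also not called without the filter on low counts, which left 5 members called, and Lum had too few reads to be tested in the fits of 2 groups and without the libraries numbered 1. With lithium 0 genes were called in each of the 21 alternatives, and the change of Prelp ran from -0.91 to 0.34 when 1 library was left out and was 0.04 without the libraries numbered 1. Reads limit Dcn, Lum and Prelp, whose VPA libraries hold 0 to 4 each.

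With the replicate number as a block, 666 genes were called lower with VPA than in control, and 996 lower and 1412 higher in the 2 groups alone with the block; against lithium the block gave 567 lower and 6 members lower. DESeq2 gave 619 lower against control and 454 against lithium, and the unblocked fit of 2 groups gave 253 lower against control. Without the libraries numbered 3, 398 were higher and 131 lower against control, and 422 higher and 103 lower against lithium. Without those numbered 1 the counts were 60 and 15, with 1 member lower, and 81 and 16, with 1 member lower. Leaving out 1 library gave 457 to 691 higher and 154 to 335 lower against control, and 396 to 863 higher and 127 to 334 lower against lithium, with 2 to 5 members lower. The causes were not tested.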
